A study of Mus musculus with 10 samples.

Results

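The expression of 50 genes of DNA replication and nucleotide supply was examined in mouse fibroblasts grown without or with ILC2s, the innate lymphoid cells of group 2. The genes were chosen by function, from 22731 genes in the count table, and cover origin licensing (12 genes), helicase activation (6), the replicative polymerases and primase (9), the sliding clamp and its loader (6), single-strand binding and Okazaki fragment joining (5), deoxynucleotide supply (5), G1/S regulators (4) and replication-coupled chromatin (3). All 50 passed the filter on low counts, which kept 16344 genes. ILC2s are tissue lymphocytes without an antigen receptor that secrete IL-13 and IL-5. Fibroblasts labelled C57B6 had been sorted as CD45-, Epcam-, CD31-, Pdpn+ and Pdgfra+ cells and ILC2s as KLRG1+ cells, and the series title names the pancreas. RNA was sequenced in bulk from 4 libraries of fibroblasts cultured alone (monoculture), 3 from culture with wild-type ILC2s (the WT coculture) and 3 from culture with ILC2s that lacked IL-13 (the IL13KO coculture). Fibroblasts were sorted again after coculture, with a gate written in the design text as CD45+, Pdpn+ and Pdgfra+. The labels state no animal, culture, day or duration for a library, so p-values measure the spread between these libraries, which may be technical.

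A replication origin is licensed when the origin recognition complex, CDC6 and CDT1 load the ring-shaped MCM2 to MCM7 helicase on DNA in G1. At the start of S phase the helicase is activated by CDC45, the GINS complex and MCM10, and polymerases held on DNA by the PCNA clamp copy both strands. Many of these genes are transcribed at the passage from G1 to S under E2F factors, and cultured fibroblasts express them mainly while they cycle.

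The monocultures had 10710410 to 14366199 counts, the WT cocultures 18801744 to 22087459 and the IL13KO cocultures 17277432 to 17661229. A count of 3 corresponded to 0.211 to 0.277, 0.135 to 0.162 and 0.170 to 0.171 CPM (counts scaled to library size and normalised for composition) in these groups in turn, which covers counting error only. Fibroblast markers were abundant: Pdgfra had 4104 to 16642 reads and Pdpn 2811 to 7355 in a library. For Ptprc, the gene of CD45, the WT libraries had 6, 3 and 9 reads, the IL13KO libraries 0, 1 and 0 and the monocultures none. Reads of Il13 numbered 30, 120 and 121 with WT ILC2s and 0 in each of the other 7 libraries. In the count table the WT columns are numbered 1, 3 and 4, and values below are given in that order, after monocultures 1 to 4 and before IL13KO cocultures 1 to 3.

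Fibroblasts kept with WT ILC2s had more transcript of most replication genes. Of the 50 genes 42 were higher in WT coculture than in monoculture and 2, Gins4 and Rpa3, were lower by edgeR's quasi-likelihood test (Benjamini-Hochberg adjustment over all genes tested, threshold 0.05). Of all genes tested 32.8% were higher and 29.7% lower in this comparison, against 84% and 4% of the replication genes. The median log2 fold change of the 50 genes was 1.24, that of all genes 0.02, and 33 of the 50 rose by more than 1. Of all 16344 genes tested 3684 rose by more than 1. Orc2, Orc6, Prim2, Pcna, Rfc3 and E2f1 were not called.

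With IL13KO ILC2s the replication genes divided. Of the 50 genes 19 were higher than in monoculture, 6 were lower (Orc6, Gins4, Pcna, Rpa3, Lig1 and Rrm1) and 25 were not called. The median log2 fold change of the 50 genes was 0.33 (all genes 0.0017), and 8 of them exceeded 1. Of all 16344 genes tested 3454 exceeded 1. Of all genes tested 30.1% were higher and 27.3% lower, against 38% and 12% of the replication genes. The share called higher lay near that of all genes, and the share called lower lay below it. Upper-quartile scaling gave 18 higher and 10 lower, and 4490 and 5263 among all genes. It moved the median log2 fold change of all genes from 0.0017 to -0.10, and from 0.02 to -0.11 for WT coculture. Removing the dependence of counts on GC content and transcript length, library by library (GC and length correction), gave 19 higher and 5 lower and turned the sign of 10 of the 50 genes. Among all genes this correction gave 4847 higher and 3214 lower, and it moved their median log2 fold change to 0.12 (0.10 for WT coculture). Both comparisons use the same 4 monocultures, and their values are set side by side without a test between them.

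The direct comparison of the cocultures tested the difference between WT and IL13KO ILC2s. Of the 50 genes 39 were higher with WT ILC2s, none was lower and 11 were not called, where 11.6% of all genes tested were higher and 11.7% lower. At an unadjusted p below 0.05 in edgeR 46 were higher and 1, E2f1, was lower, and all genes were not counted at that threshold. DESeq2 called 42 of the 50 higher and 1 lower, and 2191 higher and 2139 lower among all genes. The median log2 fold change of the 50 genes was 1.09 (all genes -0.0042), and 27 of them exceeded 1, as did 900 of all 16344 genes tested. Every WT library lay above every IL13KO library for 47 of the 50 genes, as for 24.2% of all genes tested. The exceptions were E2f1, for which every WT library lay below, and Rpa3 and Chaf1a, for which the groups overlapped.

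**Figure D1:**
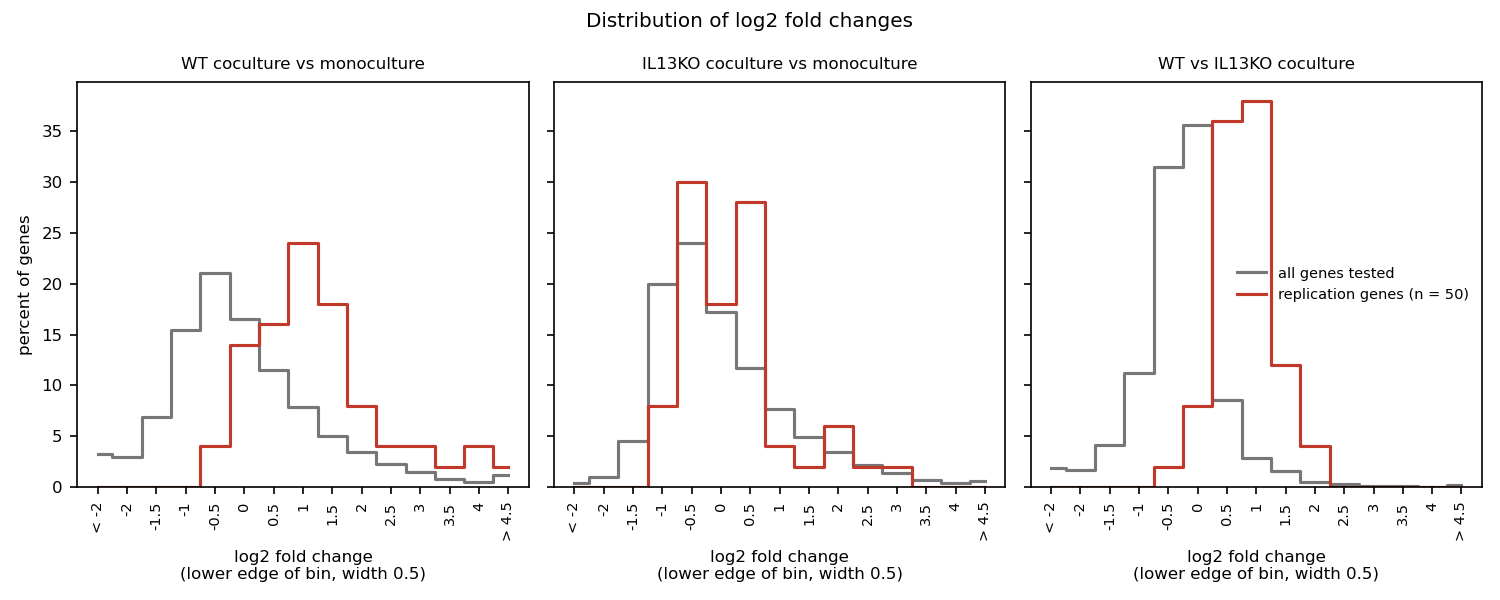
Percent of genes (vertical axis) in bins of the log2 fold change (horizontal axis, bin width 0.5) for the 50 replication genes (red) and all 16344 genes tested (grey), for each of the 3 comparisons. The replication genes have medians of 1.24, 0.33 and 1.09 in the 3 panels, and those of all genes lie within 0.02 of 0.

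Summed over the 50 genes, the monocultures had 1124 to 1251 CPM, the WT cocultures 2495 to 2772 and the IL13KO cocultures 1272 to 1491. The 3 ranges did not overlap. In bulk samples fewer cycling cells and less of these RNAs per cell cannot be told apart.

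Most licensing genes rose with WT ILC2s. Of the 12 genes 10 were higher in WT coculture than in monoculture (median log2 fold change 2.07), 5 were higher and 1 lower in IL13KO coculture (0.70), and 11 were higher with WT than with IL13KO ILC2s (1.31). Mcm6 (ENSMUSG00000026355, chromosome 1, 128331590 to 128359664, minus strand, GRCm38), a helicase subunit, had 27.3, 25.6, 28.0 and 36.0 CPM alone, 141, 128 and 145 in WT and 52.1, 49.3 and 59.3 in IL13KO coculture. The 3 groups were apart, with the IL13KO libraries between the others. Its log2 fold change was 2.24 ± 0.12, adjusted p = 2.32e-08 in WT coculture, 0.87 ± 0.12, adjusted p = 7.48e-05 in IL13KO coculture and 1.37 ± 0.13, adjusted p = 1.39e-05 between them.

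Mcm2 (ENSMUSG00000002870, chromosome 6, 88883474 to 88898780, minus strand), another helicase subunit, stood at 3.21, 3.63, 10.7 and 4.29 CPM alone, 72.2, 73.4 and 69.7 in WT and 27.0, 27.1 and 36.0 in IL13KO coculture. Monoculture 3 was the highest of the monocultures, and all 3 groups were apart. The log2 fold change of Mcm2 was 3.74 ± 0.31, adjusted p = 5.44e-07 in WT coculture, the largest of the licensing genes, and 2.48 ± 0.30, adjusted p = 2.46e-05 in IL13KO coculture, and 1.26 ± 0.29, adjusted p = 0.00812 between the cocultures. Of the other subunits Mcm3, Mcm5 and Mcm7 rose by 2.69, 3.36 and 2.16 in WT coculture and by 1.16, 1.96 and 0.96 in IL13KO coculture. Mcm4 rose by 1.19 ± 0.19 in WT coculture and had a log2 fold change of 0.24 ± 0.19, adjusted p = 0.303 in IL13KO coculture, which became 0.53 (adjusted p = 0.0311) after GC and length correction.

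Orc1 (ENSMUSG00000028587, chromosome 4, 108579423 to 108614833, plus strand), the cell cycle regulated subunit of the origin recognition complex, had 1.10, 2.15, 2.86 and 1.41 CPM alone, 5.43, 8.35 and 8.35 in WT and 1.81, 1.71 and 1.25 in IL13KO coculture. The WT libraries lay above all others, and the IL13KO libraries fell within the range of the monocultures. Between the cocultures its log2 fold change of 2.21 ± 0.33, adjusted p = 0.000434 was the largest of the 50 genes. Cdc6, which helps to load the helicase, had a difference of 2.03 ± 0.29, adjusted p = 0.000285, from 6.98 ± 2.15 CPM (SD, n = 3) with IL13KO ILC2s to 28.5 ± 1.94 (SD, n = 3) with WT ILC2s. Orc2 and Orc6, whose products are other subunits of the origin complex, were not called in WT coculture (0.31 ± 0.16, adjusted p = 0.114 and 0.18 ± 0.13, adjusted p = 0.246), but were called higher there after GC and length correction (0.57, adjusted p = 0.00643 and 0.69, adjusted p = 0.000221). In IL13KO coculture Orc6 fell by 0.49 ± 0.13 (adjusted p = 0.00758), but its value was 0.07 after GC and length correction.

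Cdt1, the loader of the helicase, and Gmnn, the gene of its inhibitor geminin, rose in WT coculture by 1.82 ± 0.43 and 1.26 ± 0.19. In IL13KO coculture neither was called (0.87 ± 0.44, adjusted p = 0.105 and -0.14 ± 0.20, adjusted p = 0.564). Cdt1 ranged from 1.10 to 9.40 CPM between the monocultures and was called in IL13KO coculture without monoculture 3 (adjusted p = 0.010). Gmnn was higher with WT than with IL13KO ILC2s (1.41 ± 0.21, adjusted p = 0.000394), while the difference for Cdt1 was not called (0.95 ± 0.44, adjusted p = 0.145).

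**Figure D2:**
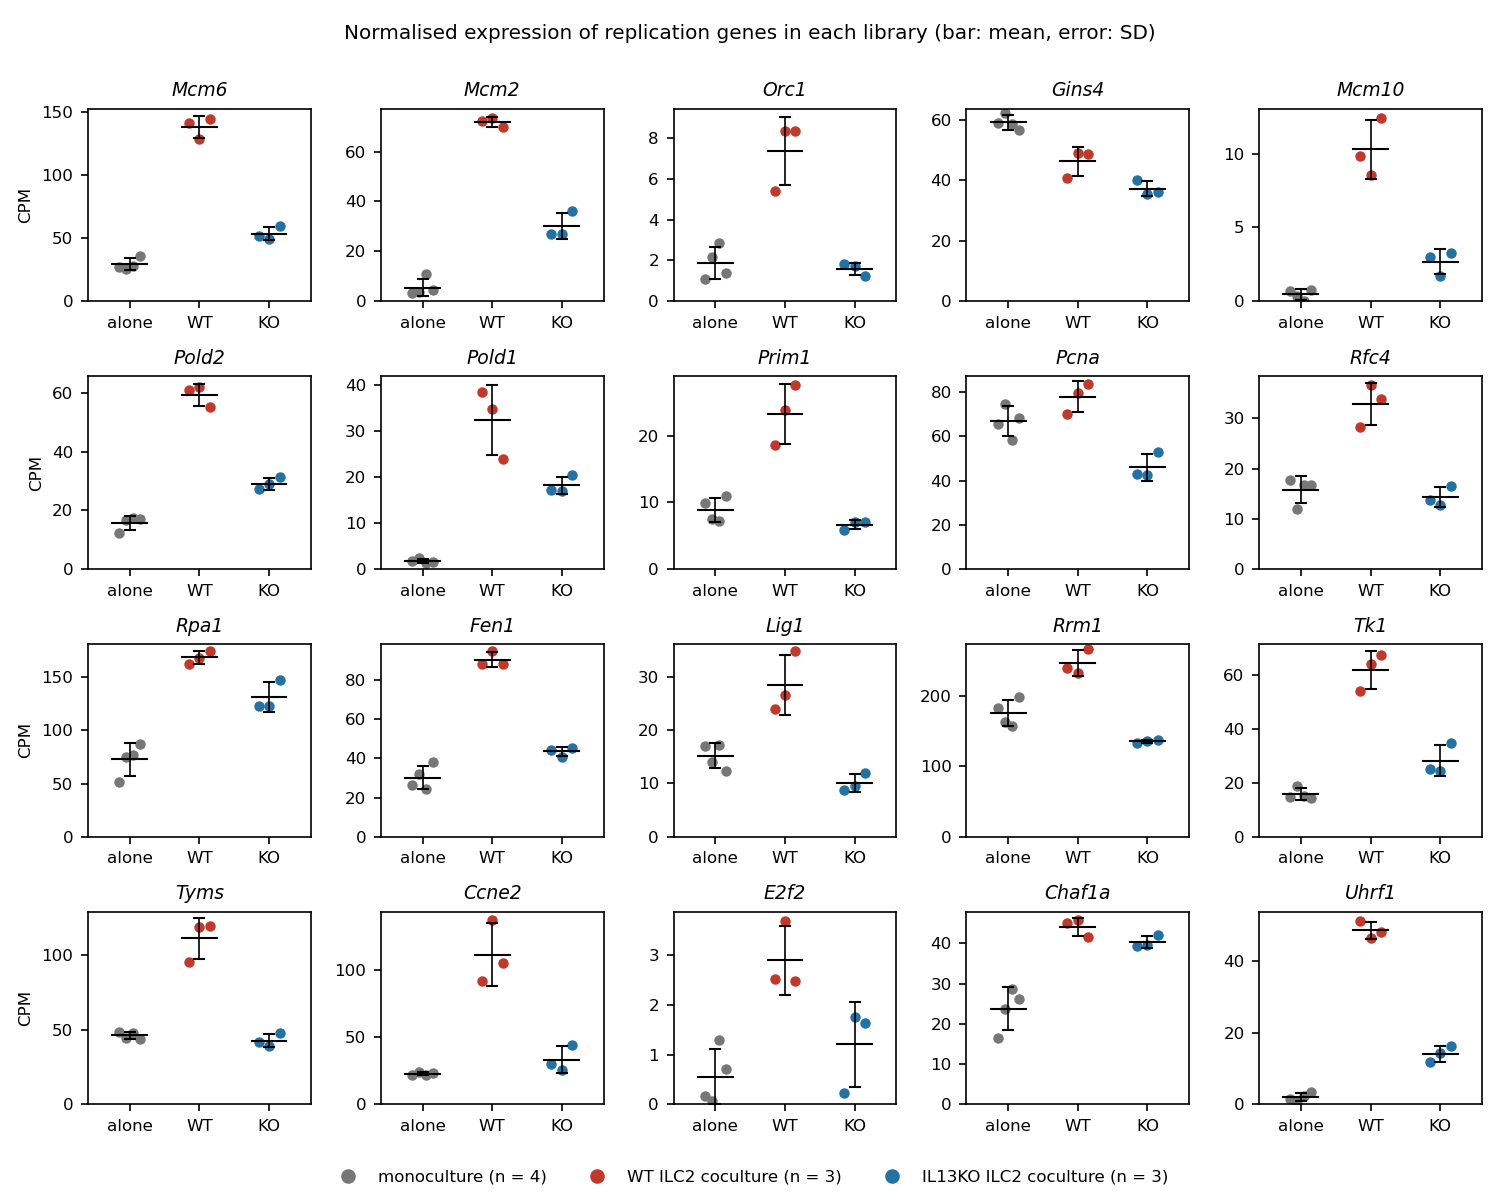
Normalised expression in CPM (vertical axes, linear, from 0) of 20 replication genes in each of 10 libraries, for fibroblasts alone (grey, n = 4), with WT ILC2s (red, n = 3) and with IL13KO ILC2s (blue, n = 3); horizontal bars are means and error bars SD. Mcm6, Mcm2 and Uhrf1 show 3 separate groups, Orc1, Prim1 and Tyms are high with WT ILC2s and near the monocultures with IL13KO ILC2s, and Chaf1a overlaps between the cocultures.

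The promoters of Mcm3, Mcm5, Mcm6 and Mcm7 are shown because their windows, with that of Rfc3, held 2 or more E2F motifs. At most 4 were printed, by number of matches and then by alphabet, which left out Rfc3. Expression played no part in this choice. Windows of 300 bases, from 250 before to 50 after a RefSeq start site (GRCm38.p6), were found by symbol for 41 of the 50 genes, with 49 windows in all. The motifs TTTCGCGC, TTTGGCGC, TTTCCCGC and TTTGCCGC were searched on both strands, and overlapping matches were counted separately. At least 1 match was found in 16 of the 49 windows (32.65%) and in 744 of 32851 windows of all genes (2.265%). Capitals mark the matches, and each sequence is written 5′ to 3′ on the strand of its gene. The windows lie at chr1:128359656-128359955 (minus strand), chr1:20820263-20820562 (minus strand), chr8:75109259-75109558 (plus strand) and chr5:138171834-138172133 (minus strand).
Mcm6: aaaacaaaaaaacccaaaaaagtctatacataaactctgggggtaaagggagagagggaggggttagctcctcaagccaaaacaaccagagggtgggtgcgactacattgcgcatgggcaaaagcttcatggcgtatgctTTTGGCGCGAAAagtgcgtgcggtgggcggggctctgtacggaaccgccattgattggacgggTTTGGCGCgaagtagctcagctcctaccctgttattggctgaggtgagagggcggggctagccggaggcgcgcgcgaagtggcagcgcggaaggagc
Mcm3: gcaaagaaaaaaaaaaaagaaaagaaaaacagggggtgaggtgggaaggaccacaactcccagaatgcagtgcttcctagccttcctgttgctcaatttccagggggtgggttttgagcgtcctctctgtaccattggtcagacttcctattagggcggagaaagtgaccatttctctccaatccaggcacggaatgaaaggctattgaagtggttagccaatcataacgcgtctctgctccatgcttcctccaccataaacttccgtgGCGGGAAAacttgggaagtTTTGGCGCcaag
Mcm5: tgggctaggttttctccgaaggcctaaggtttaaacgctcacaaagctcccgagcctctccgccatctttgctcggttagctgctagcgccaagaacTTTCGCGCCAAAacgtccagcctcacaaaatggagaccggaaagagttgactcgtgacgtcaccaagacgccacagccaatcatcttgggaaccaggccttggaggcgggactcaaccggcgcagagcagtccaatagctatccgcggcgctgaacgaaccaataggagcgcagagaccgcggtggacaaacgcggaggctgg
Mcm7: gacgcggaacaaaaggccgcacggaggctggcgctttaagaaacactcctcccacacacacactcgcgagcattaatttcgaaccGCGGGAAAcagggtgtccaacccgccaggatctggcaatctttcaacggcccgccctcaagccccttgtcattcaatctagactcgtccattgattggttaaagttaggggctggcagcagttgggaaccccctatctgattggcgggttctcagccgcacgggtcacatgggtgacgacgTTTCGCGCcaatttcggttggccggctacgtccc
Counted from the start site as 0, matches in the Mcm6 window begin at -110, -106 and -47 from the start site, the first pair overlapping. The Mcm3 matches begin at 19 and 38, those of Mcm5 at -153 and -149, and those of Mcm7 at -165 and 16.

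Rfc3 also had 2 matches, and Cdc6, Cdt1, E2f2, Gins3, Lig1, Orc1, Pola1, Pold1, Pold3, Pole2 and Uhrf1 had 1 each. Genes with and without a match are found among the rises: Mcm2, Mcm10 and Rrm2 had none in their windows, which says only that these letters are not in those bases. Searched in the same way, the motif CCAAT was present in 59.18% of the windows of replication genes and 37.41% of all windows, and TTTGAA or TTCGAA, the letters of the cell cycle homology region, in 16.33% and 19.23%. The median window of a replication gene had 60% G and C and 23 CG pairs, and the median of all windows 52.67% and 7. A match is a description of the sequence, and no binding was measured.

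Helicase activation genes were mostly higher with WT ILC2s. Of 6 genes 5 rose and 1 fell in WT coculture (median 1.04), 1 rose and 1 fell in IL13KO coculture (-0.07), and 5 were higher with WT than with IL13KO ILC2s (1.29). Mcm10, which helps to open the loaded helicase, had 0.676, 0.370, 0 and 0.773 CPM alone, from 8, 5, 0 and 11 reads, 9.87, 8.56 and 12.4 in WT and 3.01, 1.71 and 3.29 in IL13KO coculture. It was barely detected in monoculture, and the groups were apart. The log2 fold change was 4.43 ± 0.45, adjusted p = 3.01e-06 in WT coculture, 2.48 ± 0.48, adjusted p = 0.000752 in IL13KO coculture and 1.94 ± 0.39, adjusted p = 0.00321 between them.

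Cdc45, a part of the active helicase, rose by 1.48 ± 0.19 in WT coculture and had a value of 0.18 ± 0.20, adjusted p = 0.475 in IL13KO coculture. The 4 GINS genes, whose products form 1 complex with CDC45 and the MCM ring, did not move together. Gins1, Gins2 and Gins3 rose in WT coculture by 1.015 ± 0.33, 1.06 ± 0.17 and 0.92 ± 0.21, but Gins1 was not called without WT library 3 or 4 (adjusted p = 0.0502 and 0.0634). Gins1, Gins2 and Gins3 were not called in IL13KO coculture (-0.32, 0.36 and -0.35). All 3 were higher with WT than with IL13KO ILC2s (1.34 ± 0.36, 0.70 ± 0.18 and 1.27 ± 0.22), although leaving out 1 library ended the call for Gins1 in 4 of 10 fits and for Gins2 in 2. Exons of Gse1 cover 67.3% of the exon bases of Gins2, and the strand used in counting is not given in the sources used here.

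Gins4 (ENSMUSG00000031546, chromosome 8, 23226616 to 23237659, minus strand) went the other way, at 59.0, 62.4, 58.8 and 56.7 CPM alone, 40.8, 49.1 and 48.9 in WT and 39.98, 35.6 and 36.3 in IL13KO coculture. Every monoculture lay above every coculture. It fell by 0.36 ± 0.10 in WT coculture (adjusted p = 0.00825) and by 0.67 ± 0.10 in IL13KO coculture (adjusted p = 0.000144). The difference between the cocultures was not called (0.31 ± 0.11, adjusted p = 0.0558). After GC and length correction the value in WT coculture was -0.05 and was not called (adjusted p = 0.669).

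Among the polymerase and primase genes 8 of 9 were higher in WT coculture (median 1.62), 4 in IL13KO coculture (0.53) and 6 with WT against IL13KO ILC2s (0.86), and none was lower. Pold1 (ENSMUSG00000038644, chromosome 7, 44532746 to 44548849, minus strand), the catalytic subunit of polymerase delta, had 1.77, 2.44, 1.29 and 1.41 CPM alone, 38.5, 34.9 and 23.9 in WT and 17.2, 17.0 and 20.4 in IL13KO coculture. Both cocultures lay far above the monocultures, and the lowest WT library, 4, was nearest to the IL13KO libraries. Its log2 fold change was 4.22 ± 0.23, adjusted p = 2.30e-08 in WT coculture and 3.38 ± 0.23, adjusted p = 4.77e-07 in IL13KO coculture, and 3.08 and 2.06 after GC and length correction. The difference between the cocultures (0.84 ± 0.21, adjusted p = 0.0113) was not called when WT library 1 or IL13KO library 1 or 2 was left out (adjusted p 0.0509 to 0.0576).

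Pold2, the accessory subunit of polymerase delta, had 12.2, 16.6, 17.2 and 17.2 CPM alone, 61.3, 62.0 and 55.2 in WT and 27.2, 28.9 and 31.3 in IL13KO coculture, with the groups apart. It rose by 1.91 ± 0.13, adjusted p = 1.36e-07 and 0.88 ± 0.13, adjusted p = 0.00012 in the WT and IL13KO cocultures, and the cocultures differed by 1.03 ± 0.14, adjusted p = 0.0002. Pole, the catalytic subunit of polymerase epsilon, rose by 3.32 ± 0.43 and 2.17 ± 0.45 from 0.831 ± 0.589 CPM (SD, n = 4) in monoculture, where it had 9, 20, 11 and 1 reads. Between the cocultures its value was 1.14 ± 0.40 and was not called in edgeR (adjusted p = 0.0532), but it was by DESeq2 (adjusted p = 0.0258) and after GC and length correction (adjusted p = 0.0365).

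Prim1, the catalytic subunit of the primase, which makes the RNA primers of new strands, had 9.97, 7.55, 7.19 and 10.9 CPM alone, 18.6, 23.8 and 27.6 in WT and 5.84, 7.10 and 7.03 in IL13KO coculture. The IL13KO libraries were all below the monocultures and the WT libraries all above. The log2 fold change was 1.39 ± 0.19, adjusted p = 3.82e-05 in WT coculture, -0.42 ± 0.20, adjusted p = 0.0886 in IL13KO coculture and 1.81 ± 0.21, adjusted p = 5.70e-05 between them. Prim2, the other primase subunit, was the only polymerase or primase gene not called in WT coculture (0.34 ± 0.21, adjusted p = 0.174), where it was called after GC and length correction (0.51, adjusted p = 0.0336) or without monoculture 1 (adjusted p = 0.0408). Between the cocultures Prim2 just missed the threshold in edgeR (0.66 ± 0.23, adjusted p = 0.0512) and was called by DESeq2 (adjusted p = 0.0294), after GC and length correction (adjusted p = 0.0267) and in 4 of 10 fits that left out 1 library.

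Pola1 and Pola2, subunits of the polymerase that extends the primers, rose by 1.96 ± 0.28 and 1.62 ± 0.30 in WT coculture. In IL13KO coculture Pola1 was not called (0.53 ± 0.29, adjusted p = 0.128), but it was when monoculture 4 was left out (adjusted p = 0.00378). Pola2 rose there by 0.84 ± 0.31, adjusted p = 0.0319, a call that ended after GC and length correction (adjusted p = 0.0658) and when WT library 3 or any IL13KO library was left out (adjusted p 0.0502 to 0.0962). Pold3 and Pole2, accessory subunits, rose by 1.08 and 0.57 in WT coculture, were not called in IL13KO coculture (0.22 and -0.29), and were both higher with WT ILC2s (0.86 ± 0.16 and 0.86 ± 0.19). Without WT library 3 the rise of Pole2 was not called (adjusted p = 0.0765).

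**Figure D3:**
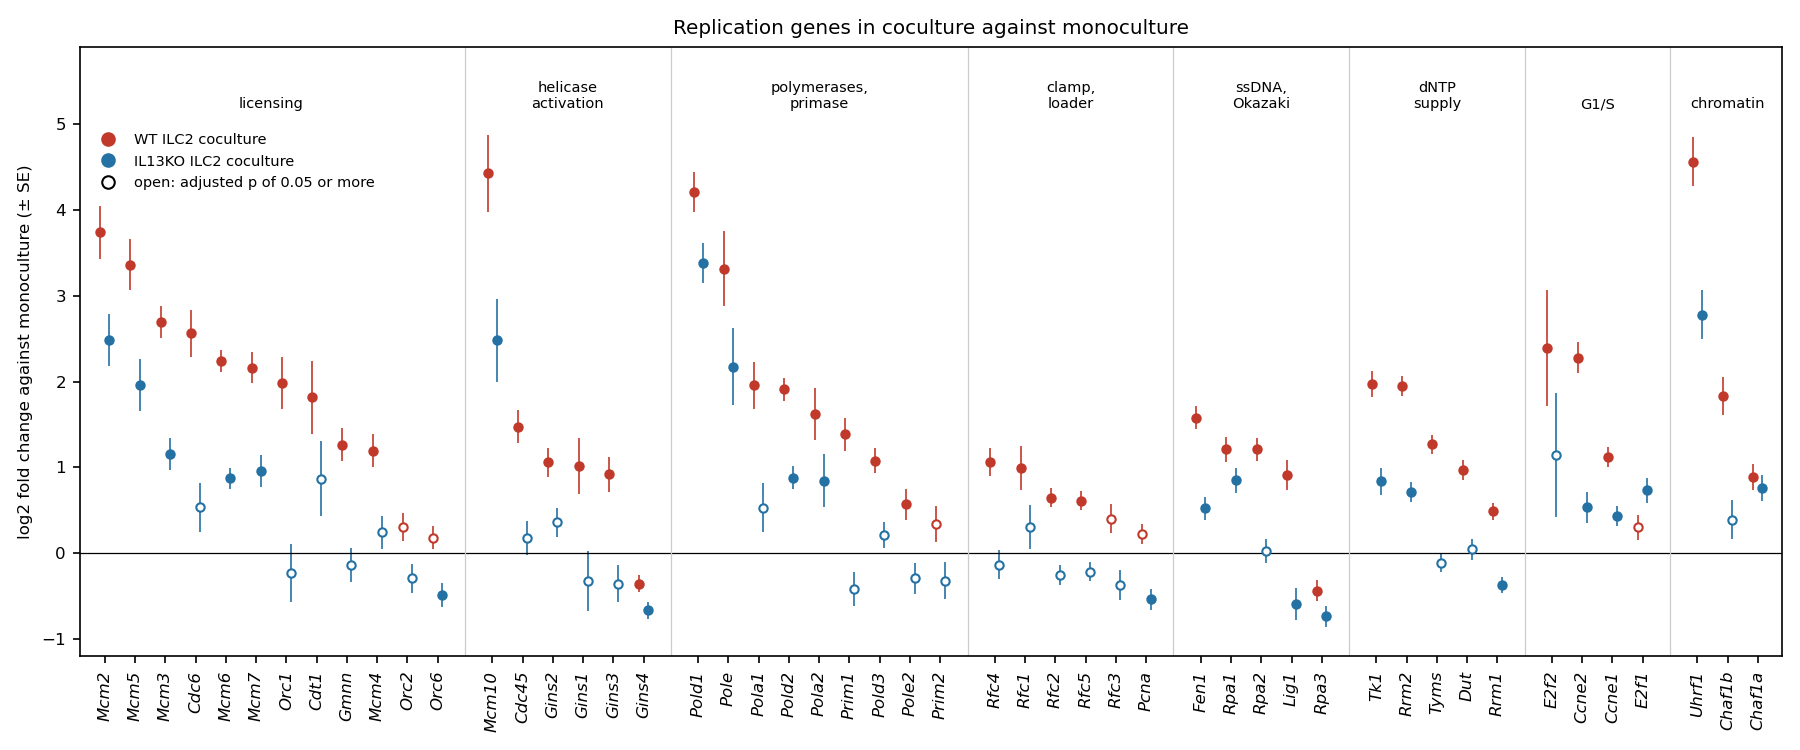
Log2 fold change against monoculture (vertical axis, ± SE) of the 50 replication genes, ordered by role, for WT (red) and IL13KO (blue) cocultures; open symbols have an adjusted p of 0.05 or more in edgeR. WT values reach 4.56 for Uhrf1 and are below 0 for Gins4 and Rpa3, and IL13KO values run from -0.74 (Rpa3) to 3.38 (Pold1).

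The clamp and its loader had the smallest median rise of the 8 roles in WT coculture. Of 6 genes 4 were higher in WT coculture (median 0.63), none was higher and 1 was lower in IL13KO coculture (-0.24), and 5 were higher with WT than with IL13KO ILC2s (0.80). Pcna (ENSMUSG00000027342, chromosome 2, 132249162 to 132253314, minus strand), the sliding clamp and a common marker of S phase, had 65.7, 74.9, 58.5 and 68.3 CPM alone, 70.1, 79.7 and 83.9 in WT and 42.8, 42.3 and 53.1 in IL13KO coculture. WT libraries overlapped the monocultures, and every IL13KO library lay below both groups. Pcna was not called in WT coculture (0.22 ± 0.12, adjusted p = 0.12), fell by 0.54 ± 0.12 in IL13KO coculture (adjusted p = 0.00201) and differed by 0.76 ± 0.13, adjusted p = 0.000969 between the cocultures. After GC and length correction the values against monoculture were 0.75 (adjusted p = 2.73e-05) and 0.04, so that the direction in IL13KO coculture depends on this step. The genome holds copies named Pcna-ps1 and Pcna-ps2, and how reads shared with them were assigned is not given in the sources used here.

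Rfc4, a loader subunit, had 17.7, 11.8, 16.8 and 16.7 CPM alone, 28.3, 36.6 and 33.9 in WT and 13.7, 12.8 and 16.6 in IL13KO coculture. The WT libraries were the highest, and the other groups overlapped. It rose by 1.06 ± 0.16, adjusted p = 9.96e-05 in WT coculture and differed by 1.20 ± 0.18, adjusted p = 0.000397 between the cocultures; in IL13KO coculture its value was -0.13 ± 0.17, adjusted p = 0.514, and 0.73 (adjusted p = 0.00297) after GC and length correction. Rfc1, Rfc2 and Rfc5, other subunits, rose in WT coculture by 0.995 ± 0.26, 0.65 ± 0.11 and 0.61 ± 0.11, and Rfc3 was not called (0.40 ± 0.17, adjusted p = 0.0547). In IL13KO coculture Rfc1, Rfc2, Rfc3 and Rfc5 stood at 0.30, -0.25, -0.37 and -0.22 without a call, and the last 3 were called lower under upper-quartile scaling (adjusted p 0.0181 to 0.0360). After GC and length correction Rfc2 and Rfc5 were called lower there (-0.59, adjusted p = 0.00123, and -0.53, adjusted p = 0.00169), and Rfc3 was called higher in WT coculture (0.78, adjusted p = 0.000622).

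Single-strand binding genes diverged. RPA1, RPA2 and RPA3 form the trimer that covers single-stranded DNA. Rpa1 had 51.3, 75.3, 77.0 and 87.2 CPM alone, 162, 169 and 175 in WT and 123, 123 and 148 in IL13KO coculture, so both cocultures lay above all monocultures. It rose by 1.21 ± 0.15, adjusted p = 1.32e-05 and 0.85 ± 0.15, adjusted p = 0.000309, and the difference between the cocultures was not called (0.36 ± 0.16, adjusted p = 0.116). Rpa2 rose by 1.21 ± 0.14 in WT coculture, had a value of 0.03 ± 0.14, adjusted p = 0.878 in IL13KO coculture and differed by 1.18 ± 0.15 between them. Rpa3 fell by 0.44 ± 0.12 in WT coculture (adjusted p = 0.00696) and by 0.74 ± 0.12 in IL13KO coculture (adjusted p = 0.000267), but after GC and length correction it was higher by 0.75 and 0.52 (adjusted p = 7.73e-05 and 0.00204). Rpa3 has the lowest GC content of the 50 genes (34.16%).

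Fen1, the nuclease that trims Okazaki fragments, had 26.6, 32.0, 24.4 and 38.0 CPM alone, 88.5, 95.0 and 88.1 in WT and 44.3, 40.9 and 45.4 in IL13KO coculture, with the groups apart. Its log2 fold change was 1.58 ± 0.13, adjusted p = 7.55e-07 in WT coculture and 0.52 ± 0.14, adjusted p = 0.00536 in IL13KO coculture, and 1.06 ± 0.14, adjusted p = 0.000214 between the cocultures. Exons of Gm10143 and Tmem258, on the opposite strand, cover 84.2% of its exon bases. Whether its reads were counted apart from theirs depends on the strand setting, which is not given in the sources used here. Lig1, the ligase that joins the fragments, had 17.1, 14.1, 17.2 and 12.4 CPM alone, 24.0, 26.7 and 34.9 in WT and 8.68, 9.61 and 11.9 in IL13KO coculture. The WT libraries lay above the monocultures and the IL13KO libraries below them. Lig1 rose by 0.91 ± 0.18, adjusted p = 0.000639 in WT coculture and fell by 0.59 ± 0.19 (adjusted p = 0.0159) in IL13KO coculture, a call that ended without IL13KO library 1 or 2 (adjusted p 0.0615 to 0.0776), and the cocultures differed by 1.501 ± 0.20, adjusted p = 0.000154.

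All 5 genes of deoxynucleotide supply were higher in WT coculture (median 1.27) and all 5 were higher with WT than with IL13KO ILC2s (1.13), while 2 were higher and 1 lower in IL13KO coculture (0.04). Rrm1 (ENSMUSG00000030978, chromosome 7, 102441695 to 102469771, plus strand), the large subunit of ribonucleotide reductase, had 183, 163, 158 and 198 CPM alone, 239, 232 and 267 in WT and 133, 136 and 137 in IL13KO coculture. The WT libraries were above and the IL13KO libraries below every monoculture. The log2 fold change was 0.49 ± 0.10, adjusted p = 0.000708 in WT coculture, -0.37 ± 0.10, adjusted p = 0.00578 in IL13KO coculture and 0.86 ± 0.10, adjusted p = 8.88e-05 between them. Rrm2, the small subunit, which is made in S phase, rose in both cocultures, by 1.95 ± 0.12, adjusted p = 5.28e-08 and 0.71 ± 0.12, adjusted p = 0.00026, and differed by 1.24 ± 0.13, adjusted p = 2.42e-05.

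Tk1, the thymidine kinase of cycling cells, had 14.6, 18.9, 15.2 and 14.3 CPM alone, 54.1, 63.9 and 67.5 in WT and 25.2, 24.4 and 34.8 in IL13KO coculture, with the groups apart. It rose by 1.97 ± 0.15, adjusted p = 3.67e-07 and 0.84 ± 0.15, adjusted p = 0.000544, and the cocultures differed by 1.13 ± 0.16, adjusted p = 0.000305. Tyms, which makes thymidylate, had 48.4, 44.3, 48.1 and 44.1 CPM alone, 95.6, 119 and 119 in WT and 41.6, 39.2 and 47.7 in IL13KO coculture. The IL13KO libraries overlapped the monocultures. Tyms rose by 1.27 ± 0.11, adjusted p = 7.76e-07 in WT coculture, was not called in IL13KO coculture (-0.11 ± 0.11, adjusted p = 0.42) and differed by 1.38 ± 0.12, adjusted p = 6.22e-06 between them. Dut, which removes dUTP, rose by 0.97 ± 0.12 in WT coculture and stood at 0.04 ± 0.12, adjusted p = 0.771 in IL13KO coculture. A copy named Tyms-ps exists in the annotation.

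Of the G1/S regulators 3 of 4 were higher in WT coculture (median 1.70), 3 in IL13KO coculture (0.63) and 2 with WT against IL13KO ILC2s (0.97). Ccne2 (ENSMUSG00000028212, chromosome 4, 11191351 to 11204779, plus strand), the gene of cyclin E2, which activates CDK2 at the start of S phase, had 22.0, 24.3, 22.1 and 23.1 CPM alone, 91.4, 137 and 105 in WT and 29.7, 25.5 and 44.4 in IL13KO coculture. All groups were apart, and IL13KO library 3 was the highest of its group. It rose by 2.28 ± 0.18, adjusted p = 4.35e-07 in WT coculture and by 0.54 ± 0.18, adjusted p = 0.0239 in IL13KO coculture, and these values were 2.97 and 1.19 after GC and length correction. The smaller rise was not called without IL13KO library 3 (adjusted p = 0.176) or under upper-quartile scaling (adjusted p = 0.0595). Between the cocultures Ccne2 differed by 1.74 ± 0.19, adjusted p = 4.31e-05. Ccne1, the gene of cyclin E1, rose by 1.12 ± 0.12 and 0.44 ± 0.12.

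E2f1 (ENSMUSG00000027490, chromosome 2, 154559407 to 154569892, minus strand), an activating factor of replication genes, had 9.63, 12.5, 10.1 and 11.04 CPM alone, 13.3, 14.4 and 12.3 in WT and 18.2, 19.7 and 16.2 in IL13KO coculture. The IL13KO libraries were the highest. E2f1 was not called in WT coculture (0.30 ± 0.15, adjusted p = 0.0921) and rose in IL13KO coculture (0.73 ± 0.15, adjusted p = 0.000931), but the 2 values were -0.34 and -0.04 after GC and length correction. The difference between the cocultures was -0.43 ± 0.15, adjusted p = 0.0607 in edgeR and was called lower by DESeq2 (adjusted p = 0.0281). E2f2, another activating factor, had 0.169, 0.0741, 1.29 and 0.703 CPM alone, from 2, 1, 14 and 10 reads, 2.51, 3.69 and 2.48 in WT and 0.227, 1.76 and 1.64 in IL13KO coculture. Its mean over the 10 libraries was the lowest of the 50 genes per kb of exon, and the monocultures differed widely. E2f2 rose by 2.39 ± 0.68, adjusted p = 0.0077 in WT coculture (3.12 without monoculture 3, and 1.66 after GC and length correction) and was called neither in IL13KO coculture (1.14 ± 0.72, adjusted p = 0.193; 1.87 without monoculture 3) nor between the cocultures (1.25 ± 0.65, adjusted p = 0.19).

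All 3 replication-coupled chromatin genes were higher in WT coculture (median 1.83), 2 in IL13KO coculture (0.76) and 2 with WT against IL13KO ILC2s (1.44). Uhrf1 (ENSMUSG00000001228, chromosome 17, 56303321 to 56323486, plus strand), which brings the maintenance DNA methyltransferase to new DNA, had 1.52, 0.889, 2.40 and 3.37 CPM alone, 51.2, 46.6 and 48.1 in WT and 11.8, 14.4 and 16.2 in IL13KO coculture. The groups were far apart. Its log2 fold change in WT coculture, 4.56 ± 0.28, adjusted p = 6.17e-08, was the largest of the 50 genes, and it was 2.78 ± 0.29, adjusted p = 6.87e-06 in IL13KO coculture and 1.78 ± 0.26, adjusted p = 0.000369 between them. Chaf1a and Chaf1b encode subunits of the histone chaperone CAF-1. Chaf1a had 16.6, 23.8, 28.8 and 26.2 CPM alone, 45.1, 45.8 and 41.5 in WT and 39.3, 39.7 and 42.1 in IL13KO coculture, and the cocultures overlapped. It rose by 0.89 ± 0.15, adjusted p = 0.000247 and 0.76 ± 0.15, adjusted p = 0.00101, the second of which was 0.21 and not called (adjusted p = 0.215) after GC and length correction, and the value between the cocultures was not called (0.13 ± 0.16, adjusted p = 0.619). Chaf1b rose by 1.83 ± 0.22, adjusted p = 1.34e-05 in WT coculture, was not called in IL13KO coculture (0.39 ± 0.23, adjusted p = 0.159) and differed by 1.44 ± 0.24, adjusted p = 0.000796. Exons of Ubxn6 cover 52.5% of the exon bases of Chaf1a.

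**Figure D4:**
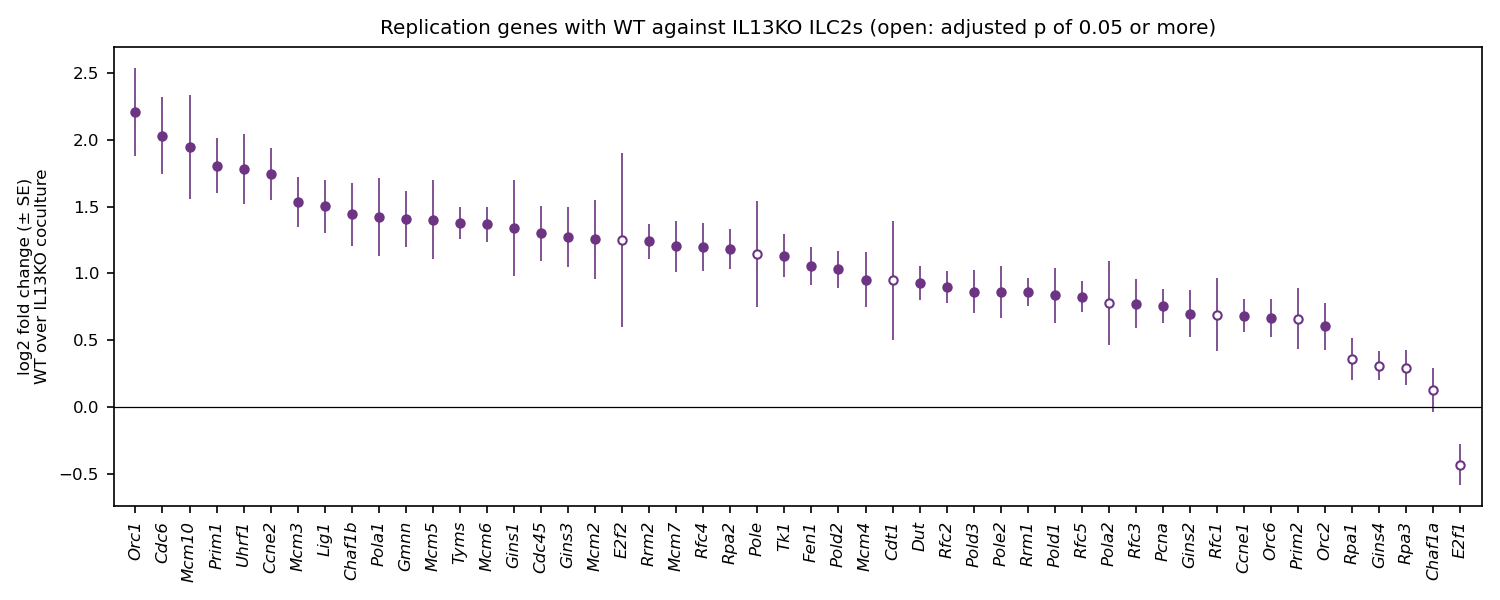
Log2 fold change of WT over IL13KO coculture (vertical axis, ± SE) for the 50 replication genes in descending order; open symbols have an adjusted p of 0.05 or more in edgeR. Values run from 2.21 (Orc1) to -0.43 (E2f1), and the 11 open symbols are E2f2, Pole, Cdt1, Pola2, Rfc1, Prim2, Rpa1, Gins4, Rpa3, Chaf1a and E2f1.

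Levels were compared between genes as CPM per kb of exon, with all annotated exons of a gene merged. This length can exceed that of the transcripts present. The order of genes and the size of the shares and ratios below therefore depend on the annotation. Rrm2 ranked first of the 50 over the 10 libraries, with 21.2 ± 2.49 CPM per kb (SD, n = 4) in monoculture, 81.9 ± 2.62 (SD, n = 3) in WT coculture and 34.7 ± 5.55 (SD, n = 3) in IL13KO coculture. Rpa3, Gins4 and Pcna followed, so 3 of the 4 highest genes were among those that were lower or not called in WT coculture. In monoculture Rpa3 (52.1 ± 4.21) and Gins4 (43.9 ± 1.77) lay above Rrm2, and in WT coculture they lay below it (38.4 ± 6.18 and 34.3 ± 3.52). Orc1, Mcm10, Pole and E2f2 were lowest as means over the 10 libraries, at 0.989, 0.529, 0.352 and 0.298 CPM per kb. In monoculture the order was different: Mcm10 (0.0591 ± 0.0453), Pole (0.0745 ± 0.0528), E2f2 (0.115 ± 0.115), Pold1 (0.356 ± 0.107), Uhrf1 (0.480 ± 0.254) and Orc1 (0.540 ± 0.227), with SDs that overlap between neighbours except E2f2 and Pold1.

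The subunits of the helicase differed less in level in the cocultures than in monoculture. The highest of Mcm2 to Mcm7 was 12.7, 20.2, 4.70 and 13.6 times the lowest in the monocultures (in CPM per kb), 2.92, 2.61 and 3.10 times in the WT cocultures and 2.88, 2.71 and 2.46 times in the IL13KO cocultures. Monoculture 3, the lowest of its group, lay above all cocultures. As a share of the 6 genes' summed CPM per kb, Mcm2 took 3.57 ± 2.11% (SD, n = 4) in monoculture, 10.1 ± 0.956% (SD, n = 3) in WT coculture and 10.21 ± 0.330% (SD, n = 3) in IL13KO coculture. Mcm4 took 35.9 ± 7.500%, 17.4 ± 1.602% and 22.1 ± 0.434%, and Mcm6 29.1 ± 4.94%, 28.8 ± 1.12% and 27.3 ± 1.31%. The Mcm2 shares of the 2 cocultures lay within 1 SD of each other, and those of Mcm4 did not. These shares are descriptions and were not tested.

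**Figure D5:**
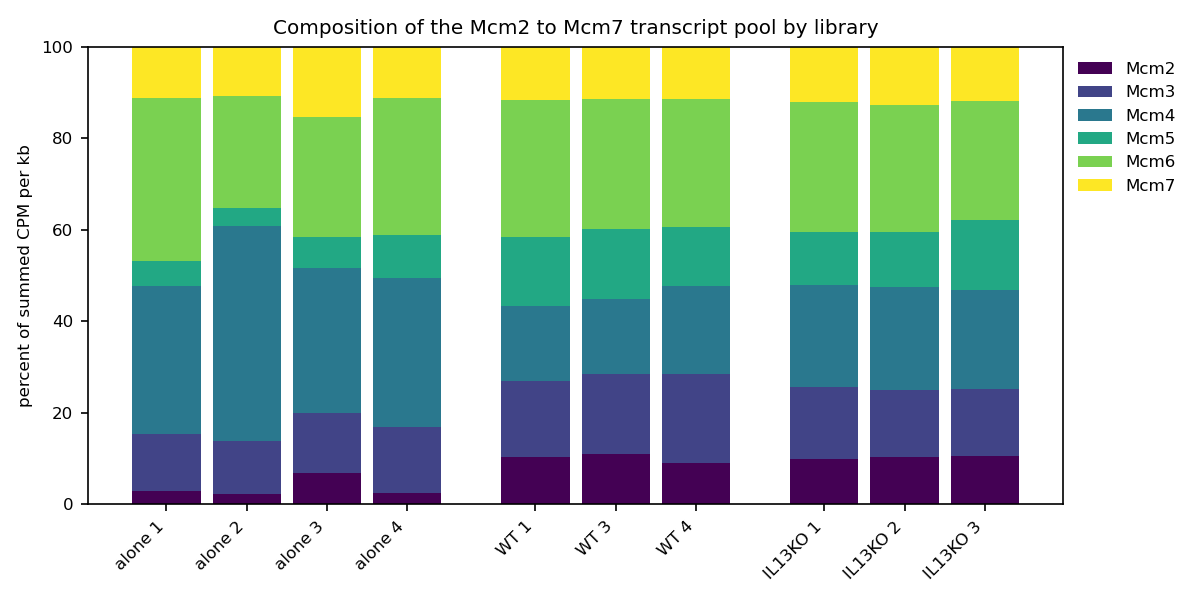
Share of each of Mcm2 to Mcm7 in their summed CPM per kb of exon (vertical axis, percent) in each of 10 libraries; colours stand for genes. Mcm4 takes 31.6 to 47.2% in fibroblasts alone, 16.5 to 19.3% with WT ILC2s and 21.7 to 22.5% with IL13KO ILC2s.

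The ratio of Rrm2 to Rrm1 in CPM per kb was 1.34 ± 0.184 (SD, n = 4) in monoculture, 3.68 ± 0.268 (SD, n = 3) in WT coculture and 2.82 ± 0.418 (SD, n = 3) in IL13KO coculture. Ccne2 to Ccne1 stood at 0.799 ± 0.0634, 1.79 ± 0.464 and 0.841 ± 0.160, and Chaf1b to Chaf1a at 0.582 ± 0.128, 1.12 ± 0.136 and 0.446 ± 0.0985. For the last 2 pairs the IL13KO libraries overlapped the monocultures in range. Other pairs had IL13KO values near or above the WT values. Mcm2 to Mcm6 stood at 0.128 ± 0.0860, 0.350 ± 0.0309 and 0.375 ± 0.0301 in the same order, and Pold1 to Pold2 at 0.0439 ± 0.0154, 0.211 ± 0.0385 and 0.243 ± 0.0126. Rpa1 to Rpa3 stood at 0.254 ± 0.0675, 0.799 ± 0.113 and 0.752 ± 0.0463, and Pole to Pole2 at 0.0206 ± 0.0137, 0.142 ± 0.00952 and 0.123 ± 0.0494. For these 4 pairs the cocultures overlapped each other and lay above every monoculture. Cdt1 to Gmnn, at 0.306 ± 0.289, 0.409 ± 0.0726 and 0.555 ± 0.0525, was higher in every IL13KO library than in every WT library, and the monocultures ranged from 0.0619 to 0.721. These ratios were not tested.

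Genes with a lower level in monoculture had larger fold changes. Across the 50 genes Spearman's rho between the mean CPM in monoculture and the log2 fold change was -0.597 in WT coculture, -0.432 in IL13KO coculture and -0.542 between the cocultures. The first pair share the monoculture values on both axes. With the GC content of the transcript rho was 0.353, 0.557 and 0.0155 in the same order. The GC content ran from 34.16% (Rpa3) to 61.01% (Pold1), and the genes share their libraries.

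Other genes of the same processes were counted from 3 wider lists. Of all genes tested 32.8% were higher and 29.7% lower in WT coculture, and 30.1% and 27.3% in IL13KO coculture. Between the cocultures these shares were 11.6% and 11.7%. Of 35 further fork and origin factors 19 (54.3%) were higher and 7 (20%) lower in WT coculture (median 0.93). In IL13KO coculture 9 (25.7%) were higher and 10 (28.6%) lower (median -0.02), near the shares of all genes. With WT against IL13KO ILC2s 19 (54.3%) were higher and none was lower (median 0.65). Chtf18, a subunit of an alternative clamp loader, rose from 0.203 ± 0.174 CPM (SD, n = 4) to 14.4 ± 1.87 (SD, n = 3) with WT ILC2s and 8.04 ± 1.36 (SD, n = 3) with IL13KO ILC2s. Top2a, a topoisomerase of proliferating cells, rose by 2.43 ± 0.15 and 0.74 ± 0.15, and Asf1b, a histone chaperone, by 2.39 ± 0.16 and 0.66 ± 0.16. The paralogue Asf1a fell by 0.86 ± 0.12 and 0.88 ± 0.12, Orc4, another origin complex subunit, by 0.80 ± 0.11 and 0.72 ± 0.11, and Mcm9, a helicase of DNA repair, by 0.80 ± 0.13 and 0.81 ± 0.13.

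Of 27 further G1/S control genes tested 16 (59.3%) were higher and 5 (18.5%) lower in WT coculture (median 0.72). In IL13KO coculture 12 (44.4%) were higher and 6 (22.2%) lower (median 0.25). Between the cocultures 10 (37%) were higher and 3 (11.1%) lower with WT ILC2s (median 0.25). Cdk6, a kinase that acts with D cyclins in G1, rose by 2.48 ± 0.10 and 1.03 ± 0.10 in the WT and IL13KO cocultures, Rbl1, the gene of the pocket protein p107, by 2.10 ± 0.16 and 1.006 ± 0.16, and Myc by 1.81 ± 0.12 and 0.91 ± 0.12. The cyclin-dependent kinase inhibitor genes Cdkn2b and Cdkn1a were lower, by -2.35 and -0.86 in WT coculture and -1.05 and -1.24 in IL13KO coculture, on the log2 scale, and Ccnd2, a D cyclin, fell by 0.83 and 0.41. None of the other inhibitor genes of the list was called lower in both cocultures. Cdkn1c rose by 1.63 ± 0.30 and 1.86 ± 0.30 and Cdkn2c by 0.72 ± 0.23 and 0.68 ± 0.24. Cdkn2d rose by 0.83 ± 0.11 in WT coculture and was not called in IL13KO coculture (0.25 ± 0.11, adjusted p = 0.0692). Cdkn1b was not called in WT coculture (-0.18 ± 0.14, adjusted p = 0.282) and fell by 0.35 ± 0.14 in IL13KO coculture (adjusted p = 0.0484), and Cdkn2a was called in neither. Between the cocultures Cdkn2b was lower (-1.30 ± 0.15, adjusted p = 4.67e-05) and Cdkn1a higher (0.38 ± 0.10, adjusted p = 0.0189) with WT ILC2s.

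Of 33 further genes of nucleotide synthesis 19 (57.6%) were higher and 5 (15.2%) lower in WT coculture (median 0.49). In IL13KO coculture 11 (33.3%) were higher and 9 (27.3%) lower (median -0.04), near the shares of all genes (30.1% and 27.3%). Between the cocultures 17 (51.5%) were higher and 2 (6.06%) lower with WT ILC2s (median 0.46). Mthfd1 and Shmt2, of folate metabolism, rose by 2.12 ± 0.13 and 2.73 ± 0.19 with WT ILC2s and by 1.74 ± 0.13 and 1.75 ± 0.18 with IL13KO ILC2s. Impdh1, of guanine nucleotide synthesis, rose by 4.86 ± 0.32 and 4.37 ± 0.32, and the cocultures did not differ beyond the threshold (0.48 ± 0.27, adjusted p = 0.226). Dguok, a mitochondrial deoxynucleoside kinase, fell by 1.26 and 0.85, Ctps2, a CTP synthase, by 0.84 and 0.46, and Prps2, which makes the ribose donor, by 1.13 and 0.76.

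Markers of other cells also moved with the groups, and those of white blood cells are given first. The summed CPM of 11 leukocyte markers was 11.03 to 19.6 for fibroblasts alone, 112 to 144 with WT ILC2s and 27.5 to 35.1 with IL13KO ILC2s, and of the 5 markers tested 3 (Cd53, Arhgdib and Il2rg) were higher in WT coculture than in monoculture and than in IL13KO coculture, and Coro1a and Lcp1 were not called. Cd53 made up most of this sum, with 29 to 43 reads alone, 2059, 2084 and 2073 in WT and 223, 334 and 309 in IL13KO coculture. The defining marker Ptprc was at or near 0, as given above. ILC2 markers summed to 65.9 to 82.0 CPM alone, to 1259 to 1510 with WT ILC2s, largely Il1rl1, and to 75.4 to 82.6 with IL13KO ILC2s. Rora, at 59.8 to 71.1 CPM alone and 51.7 to 57.4 with IL13KO ILC2s, made up most of the sums in these groups. Of 6 ILC2 markers tested 5 were higher and 1 lower in WT coculture, and 4 and 0 in IL13KO coculture. Il5 had 0 reads in each monoculture, 80, 265 and 371 in WT and 30, 64 and 12 in IL13KO coculture. Gata3 and Il2ra were called higher in both cocultures. In the WT cocultures Il7r had 0, 0 and 5 reads and Klrg1 0, 6 and 10, and Rora was lower than in monoculture (-0.61 ± 0.11). Macrophage markers summed to 68.1 to 74.7 CPM alone, 22.1 to 23.9 with WT ILC2s and 42.5 to 48.8 with IL13KO ILC2s. Lyz2, which made up most of the sum in monoculture, had log2 fold changes of -4.23 ± 0.15 in WT and -1.17 ± 0.13 in IL13KO coculture. The list did not fall as a whole. Csf1r was called higher in WT coculture (0.52 ± 0.18, adjusted p = 0.0214) but not in IL13KO coculture (0.44 ± 0.18, adjusted p = 0.0505). Cd14 was called in neither, and Adgre1 and Cd68 were not tested. Mural markers summed to 53.7 to 80.6, 12.5 to 19.3 and 67.5 to 88.0 CPM, with Rgs5 lower by -2.58 ± 0.21 in WT coculture and not called in IL13KO coculture (0.17 ± 0.19, adjusted p = 0.466). Mcam and Abcc9 were also lower in WT coculture (-1.66 ± 0.42 and -1.21 ± 0.27) and not called in IL13KO coculture. Notch3 was not called in WT coculture (0.23 ± 0.30) and was higher in IL13KO coculture (1.57 ± 0.29), and Cspg4 was not tested. For mesothelium the sums were 25.03 to 90.3, 129.8 to 144 and 103 to 202 CPM, and Wt1 rose by 2.11 ± 0.17 and 1.85 ± 0.17. The other markers of this list were uneven within groups. Upk3b had 14, 0, 498 and 36 reads alone, 4, 110 and 0 in WT and 499, 1291 and 41 in IL13KO coculture. It was called in neither coculture. Lrrn4 had 0 reads in each monoculture, 0, 59 and 0 in WT and 57, 301 and 7 in IL13KO coculture. It was called higher in IL13KO coculture only, and Msln was not tested. Of 8 fibroblast markers 4 were higher and 2 lower in WT coculture, 5 and 2 in IL13KO coculture, and none and 4 with WT against IL13KO ILC2s. Col1a1 rose by 2.66 ± 0.26 and 3.44 ± 0.27 in the 2 cocultures, while Dcn fell by 2.78 ± 0.20 and 0.62 ± 0.18 and Lum by 3.69 ± 0.21 and 1.44 ± 0.19. Endothelial markers summed to at most 1.02 CPM and epithelial ones to at most 3.33 CPM in a library. The part of these transcripts in the replication gene values was not tested.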

How the data were processed

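RNA from 10 fibroblast samples was sequenced as paired reads of 50 nt from a low-input kit, per the labels. The deposited count table holds the authors' raw counts as whole numbers per Ensembl gene. The submitters' processing notes name the aligner STAR 2.7.7a, the quantifier Salmon 1.6.0, the trimmer Trimmomatic 0.39 and the quality tools FastQC 0.11.9 and Picard, besides DESeq2 and the build GRCm38.p6. The counting tool, annotation and strand setting are not given in the sources used here. A normalized table of the same genes was not used. The 50 genes and the lists were chosen with earlier results of these data known.

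Genes were kept by filterByExpr and scaled by TMM, and the quasi-likelihood method of edgeR 4.0.16 (R 4.3.3) was run over the 10 libraries with a coefficient for each group. P-values were adjusted by Benjamini-Hochberg over the 16344 genes of a comparison, and calls were made under 0.05. Symbols, positions and exons came from GENCODE on GRCm38, which matched 22647 of 22731 identifiers. Genes given by library are, in each role, those with the highest mean level, the largest change in WT coculture and the largest difference between cocultures; of each wider list up to 3 genes per direction with the smallest adjusted p in WT coculture are named. E2f1 and other genes outside this rule were named because they were not called or fell, or after their values were seen. In all 21 alternative settings were run, among them DESeq2 1.42.0, other scalings and filters, GC and length correction (loess, span 0.4), a test against a fold change of 1.5 and leaving out each library. No library was left out of the reported values. The protein sequences planned for Mcm2 to Mcm7 were not used here.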

Additional observations from a re-analysis of the deposited data

Results flagged for a closer look

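In 4 of the 50 replication genes 1 of the 4 monocultures stood apart from the other 3, by a gap that exceeded Dixon's critical share of the group's range; chance alone does so in about 1 in 20 genes. Mcm2 was highest in monoculture 3 at 10.7 CPM, with the next at 4.29. Pola2 was lowest in monoculture 1 at 2.11 CPM, with the next at 7.03. Pold2 was lowest in the same library at 12.2 CPM, with the next at 16.6. Rfc4 was lowest in monoculture 2 at 11.8 CPM, with the next at 16.7. All 3 WT libraries lay above these values for each of the 4 genes.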

How the results depend on the processing

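Other size factors (RLE), no filter and a stricter filter changed no call or direction of the 50 genes in any comparison, and thinning to equal depth added only Prim2 between the cocultures. Against a fold change of 1.5 WT coculture had 35 genes higher and 0 lower, IL13KO coculture 11 and 0, and WT exceeded IL13KO for 26. Of all 16344 genes tested 3603 were higher and 2281 lower in WT coculture at that setting. In IL13KO coculture these counts were 3092 and 1142, and between the cocultures 538 and 571. Upper-quartile scaling called 10 genes lower in IL13KO coculture and gave Rpa2 -0.076 and Dut -0.061 there. GC and length correction called 48 genes higher and 0 lower in WT coculture (median 1.47) and moved Rpa3 to 0.75 and E2f1 to -0.34. Of all genes it called 5488 higher and 4137 lower there, with a median of 0.10. In IL13KO coculture it gave Orc6 0.069, Gmnn 0.36, Gins1 0.39, Gins2 -0.049, Pole2 0.20, Pcna 0.044, Rfc3 0.023, Rfc4 0.73, Rpa3 0.52 and E2f1 -0.040; the cause was not tested. DESeq2 called 1 gene lower between the cocultures, as did a fit of these 2 groups alone (with 46 higher), E2f1 in each. Of all 15898 genes tested in the fit of these 2 groups 2873 were higher and 2933 lower. Among the added higher calls were Gins4, Prim2 and Pole, both in DESeq2 and in the fit of these 2 groups. Leaving out 1 library gave 40 to 44 higher in WT coculture (4907 to 5515 of all genes). In IL13KO coculture it gave 17 to 22 higher (4375 to 5099 of all genes) and 5 to 9 lower (3516 to 4628). Between the cocultures it gave 35 to 46 higher (1098 to 2388 of all genes) and 0 to 1 lower (1238 to 2426). In IL13KO coculture the added calls included Cdc6, Gins2 and Prim1 (lower) without monoculture 3, Rfc1 without monoculture 1 and Chaf1b without monoculture 4 (adjusted p 0.00570 to 0.0426), and the signs of Orc1 (-0.41 to 0.024), Gmnn (-0.26 to 0.025), Rpa2 (-0.033 to 0.073) and Dut (-0.039 to 0.11) depended on the library left out.

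Monocultures and IL13KO cocultures of the same label number did not deviate together (r = 0.0053, -0.0574 and -0.0511). With that number as a replicate block IL13KO coculture had 17 genes higher and 6 lower, with Gmnn at 0.017 and Dut at -0.055. Of 15492 genes tested in that fit 4012 were higher and 3436 lower. A block by the numbers of the count table was chosen after seeing the data. It left 42 higher and 2 lower in WT coculture, 20 and 6 in IL13KO coculture and 34 and 0 between the cocultures. Among all genes the counts were 5052 and 4370, 4564 and 3733, and 986 and 1138 in the same order.

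Depth limits Mcm10, Pole, Orc1, E2f2, Pold1 and Uhrf1 in monoculture, with 0 to 48 reads in a library. All cocultures were sequenced more deeply than all monocultures, and thinning to 10710410 counts changed no call against monoculture.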
